A study of Mus musculus with 12 samples.

Results

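The unfolded protein response and the integrated stress response were followed through 34 named genes, found by symbol in a table of 56832 gene entries. All 34 were present, and all 34 were among the 15758 genes with enough counts to be tested. They comprised 12 targets of the transcription factor ATF4, 13 chaperones and folding factors of the endoplasmic reticulum (ER), 4 genes of ER-associated degradation (ERAD), the 3 ER stress sensors, Xbp1 and Atf4 itself. RNA sequencing had been done on macrophages sorted from the bone marrow of healthy mice and of mice with late-stage leukemia. The sort kept cells that carried CD45 and F4/80 and lacked Ly6g and Ly6c. There were 3 libraries in each of 4 groups, non-leukemic males and females and leukemic males and females, and the leukemic ones were taken at day 11. Leukemia came from bcCML cells, a mouse model of chronic myeloid leukemia in blast crisis, which were transplanted into the leukemic mice. Strain, age, genotype of the hosts, whether the donor cells can be told from host cells in the sort, and whether replicates were separate animals are not given in the sources used here. P values therefore measure the spread between libraries, which may be technical.

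When unfolded proteins build up in the ER, the sensors IRE1 (Ern1), PERK (Eif2ak3) and ATF6 are activated. IRE1 splices Xbp1 mRNA, and spliced XBP1 and cleaved ATF6 raise the transcription of chaperones and ERAD genes. PERK and its sister kinases GCN2, HRI and PKR phosphorylate the initiation factor eIF2alpha, which slows translation in general but favours translation of Atf4 mRNA. ATF4 in turn drives genes of amino acid synthesis and import, and genes that end or amplify the response, such as Ppp1r15a and Ddit3. Kinase activity, Xbp1 splicing and ATF4 protein are not measured by gene counts.

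Total counts ran from 16911827 to 26611831 in non-leukemic and from 22437689 to 30014855 in leukemic libraries. Levels are given below as CPM, counts scaled to a common library total. A count of 0 allows up to 3 counts, or 0.1 to 0.177 CPM at these depths, for counting error only. Fewer genes, 17891, were detected in female leukemic replicate 1 than elsewhere (19521 to 21247), and male non-leukemic replicate 3 had 258 CPM of Adgre1, the gene of F4/80, against 75.9 to 112 CPM in the other non-leukemic libraries; these are the 2 libraries that stood apart. The cells around the gate also differed between conditions. The summed share of counts of 12 red cell markers was 1.52% to 1.97% in non-leukemic and 0.0793% to 0.154% in leukemic libraries. The share of macrophage markers was 0.501% to 1.49% against 0.238% to 0.409%, and Csf1r, the receptor of the macrophage growth factor, had medians of 374 and 281 CPM. Markers of T and NK cells went the other way, from 0.0308% to 0.0602% up to 0.132% to 0.272%. Markers of eosinophils, basophils and mast cells went from 0.564% to 1.11% up to 1.14% to 3.66%, and those of neutrophils went from 2.27% to 5.41% down to 0.679% to 1.84%. No list of markers had a gene at 0 in every library. In such bulk samples, fewer cells of a type and less RNA per cell cannot be told apart, and the part of these shifts in the results below was not tested.

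Of the 34 genes, 17 rose and 2 fell in leukemic libraries, and 15 did not pass (adjusted p under 0.05, edgeR quasi-likelihood test, n = 6 per condition). Over all genes tested, 8.71% were called higher and 9.20% lower, or 1373 and 1449 genes; scaled by library totals alone, the split was 1673 and 1120. The median log2 fold change of the 34 was 0.46, beside -0.01 over all genes tested. The changes were uneven between the branches. Of the 13 chaperones 11 rose, with a median of 0.72, while of the 12 ATF4 targets 4 rose and 2 fell, with a median of 0.15. That median was -0.02 without male leukemic replicate 3 and 0.33 without male leukemic replicate 1 or 2. In 10 of the 34 genes every leukemic library lay above every non-leukemic library, a pattern seen in 5.05% of all genes tested. Against a minimum change of 1.5-fold, Pdia4 and Trib3 rose and Asns fell, and the others did not pass. Not passing this test does not show that a change was smaller. The other genes that rose had estimates from 1.26-fold for Shmt2 to 1.89-fold for Phgdh.

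**Figure D1:**
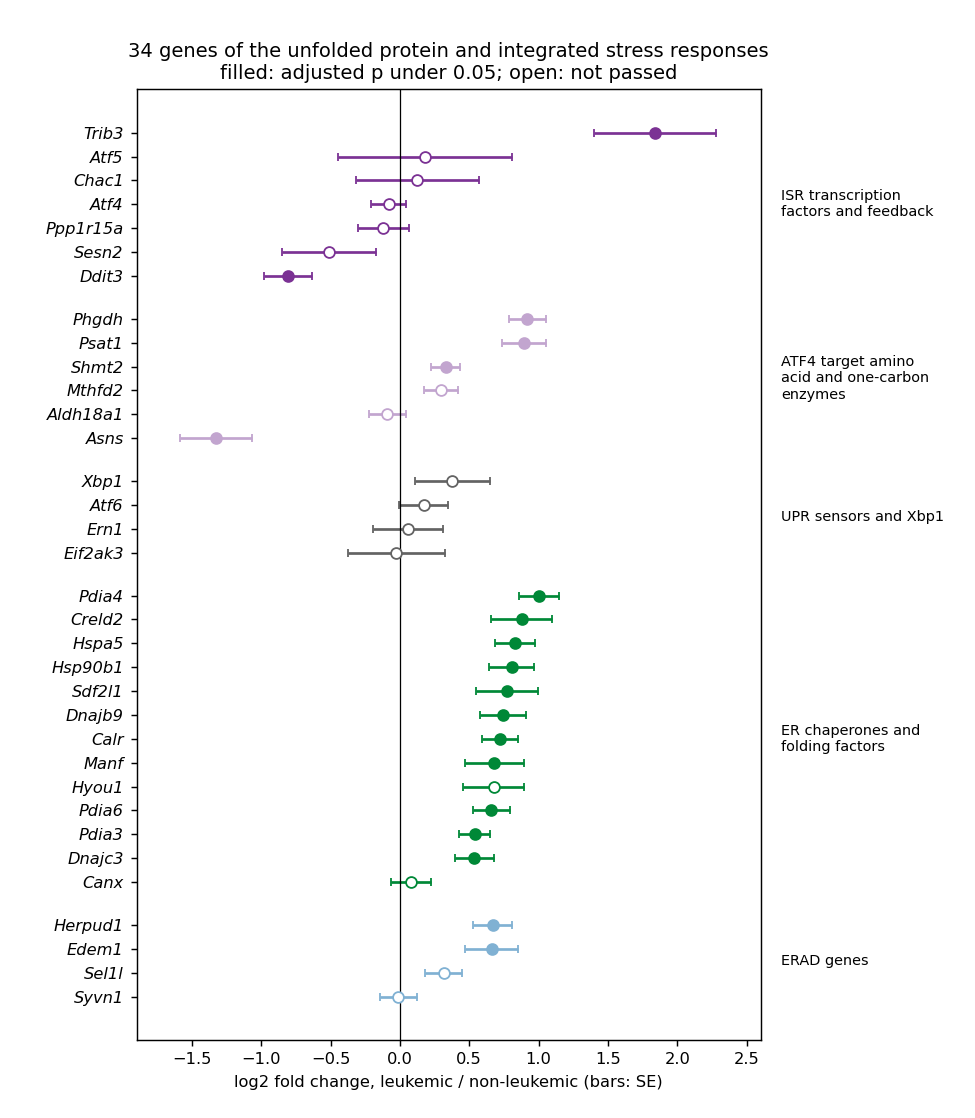
Log2 fold change, leukemic over non-leukemic, of each of the 34 genes with its standard error (bars), grouped by role; filled points passed at an adjusted p under 0.05. The chaperones lie between 0.08 and 1.00, whereas the ATF4 targets spread from -1.33 for Asns to 1.84 for Trib3.

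The ER chaperones gave the most uniform picture. Hspa5 encodes BiP, the main HSP70 of the ER and the protein that holds the sensors inactive. Its level was 1149, 1439 and 1899 CPM (lowest, median, highest) in non-leukemic and 1788, 2658 and 3507 CPM in leukemic libraries. Only female leukemic replicate 1 lay below the highest non-leukemic library. The log2 fold change was 0.83 ± 0.15 (SE, adjusted p = 0.00181), or 1.78-fold. Hsp90b1, the ER form of HSP90 known as GRP94, ran from 484 to 743 CPM (median 602) and then from 632 to 1462 CPM (median 1112). It rose by 0.81 ± 0.16 on the log2 scale (adjusted p = 0.00434), again with female leukemic replicate 1 inside the non-leukemic range.

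The protein disulfide isomerases, which form and shuffle disulfide bonds, included the member with the lowest p. Pdia4 had 214, 255 and 301 CPM in non-leukemic and 461, 484 and 686 CPM in leukemic libraries, so the conditions did not overlap. Its log2 fold change of 1.00 ± 0.14 (adjusted p = 0.000472) is a 2.0-fold rise, and it passed in all 23 alternative settings. Pdia6 rose by 0.66 ± 0.14 (adjusted p = 0.0047), from a highest non-leukemic value of 729 CPM to a lowest leukemic value of 814 CPM. Pdia3, which works on glycoproteins, rose by 0.54 ± 0.11 (adjusted p = 0.00486), with non-leukemic libraries at 835 to 1183 CPM and leukemic libraries at 1122 to 1669 CPM.

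Calr and Canx encode the lectin chaperones calreticulin and calnexin, and they parted. Calr, the soluble one, rose by 0.72 ± 0.13 (adjusted p = 0.00216), from 812, 916 and 1064 CPM to 1077, 1644 and 1986 CPM, with no overlap. Canx, which sits in the membrane, had 496, 718 and 814 CPM against 424, 819 and 924 CPM, a log2 fold change of 0.08 ± 0.15 that did not pass (adjusted p = 0.777). Its lowest value was female leukemic replicate 1. The difference between Calr and Canx was not itself tested.

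Among the HSP40 co-chaperones of BiP, Dnajb9 (ERdj4) rose by 0.74 ± 0.17 (adjusted p = 0.00764), from 13.9 to 19.9 CPM up to 23.7 to 35.8 CPM, with no overlap. Dnajc3, known as P58IPK, rose by 0.53 ± 0.14 (adjusted p = 0.0190), from 140 to 211 CPM up to 199 to 342 CPM. Hyou1, the large HSP70 relative that exchanges nucleotide on BiP, had medians of 67.2 and 116 CPM and a log2 fold change of 0.68 ± 0.22. It missed the threshold (adjusted p = 0.0503) and passed in 10 of 23 alternative settings, among them the fit without female leukemic replicate 1 (0.79, adjusted p = 0.0140) and those that left out male leukemic replicate 3 (adjusted p = 0.0470) or male non-leukemic replicate 3 (adjusted p = 0.0339).

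Sdf2l1, Creld2 and Manf encode small ER proteins best known as markers of ER stress. Creld2 rose by 0.88 ± 0.22 (adjusted p = 0.0141), with 83.1, 111 and 157 CPM in non-leukemic and 174, 224 and 304 CPM in leukemic libraries and no overlap. Manf, which binds BiP and can be secreted, rose by 0.68 ± 0.21 (adjusted p = 0.0405), from a highest non-leukemic value of 198 CPM to a lowest leukemic value of 201 CPM. Sdf2l1 rose by 0.77 ± 0.22 (adjusted p = 0.0294), with medians of 163 and 344 CPM and overlap between conditions. The calls of Manf and Sdf2l1 hung on single libraries. Leaving out male non-leukemic replicate 1, any female non-leukemic replicate or female leukemic replicate 2 left neither below the threshold, with adjusted p from 0.0658 to 0.110 for Manf and from 0.0531 to 0.0852 for Sdf2l1. Dnajc3 was lost without female non-leukemic replicate 2 (adjusted p = 0.0572).

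**Figure D2:**
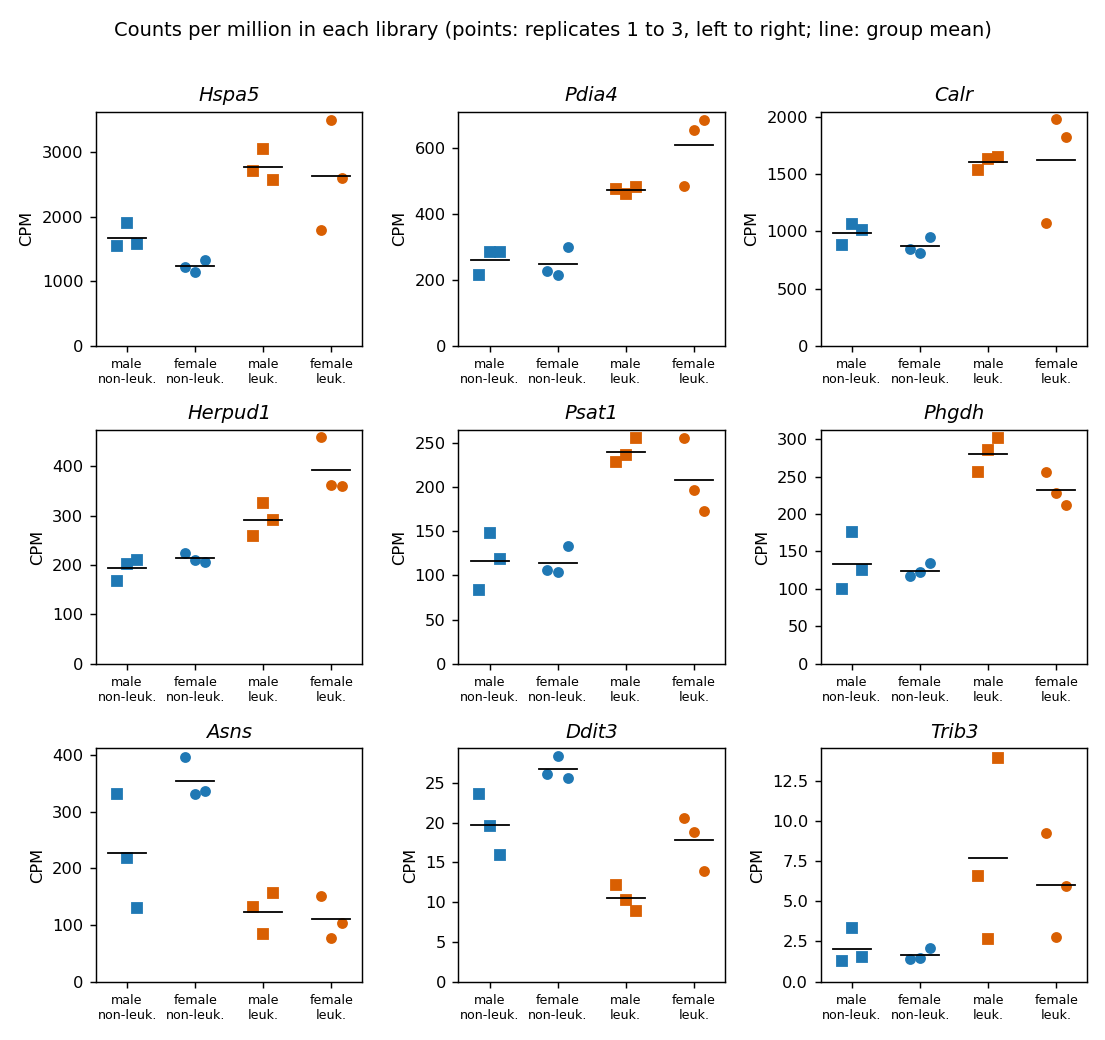
CPM in each library for 9 of the genes, with 1 point per library and a line at the group mean; the vertical axes start at 0. For Pdia4, Calr, Herpud1, Psat1 and Phgdh all 6 leukemic libraries lie above all 6 non-leukemic ones, whereas for Asns and Ddit3 the leukemic libraries lie low.

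For description only, the promoters of these genes were searched for the elements known to bind the factors of each branch. The sequences are RefSeq promoters of build GRCm38.p6, matched by symbol, from 250 bases before to 50 bases after the annotated start, and 31 of the 34 genes had an entry (Atf6, Hyou1 and Manf did not). The ER stress element, bound by ATF6 with NF-Y, was searched as CCAAT, 9 free bases and CCACG on both strands. It was found in 7 of 11 chaperone genes (63.6%), in Syvn1 among the ERAD genes, and in 0 of 12 ATF4 targets, beside 37 of 27025 genes with a promoter in the table (0.137%). Its CCACG part alone, which every such element contains, was in 90.9% of the chaperones, 75.0% of the ATF4 targets and 35.5% of all genes. The ACGTG core of the unfolded protein response element, bound by XBP1 and ATF6, was in 45.5% of the chaperones, 41.7% of the ATF4 targets and 21.8% of all genes. The C/EBP-ATF core TGATGNAA, bound by ATF4 with a C/EBP partner, was in 3 of 12 ATF4 targets (25.0%), Asns, Chac1 and Trib3, in Herpud1, and in 4.51% of all genes. A match is a run of letters and not a measured site, and a gene without one may use other letters or another region. The genes were grouped by known pathway, so these shares describe the lists and not leukemia. The part of any element in the rise was not tested. Below, the element is in capitals within 40 bases on each side, cut at the window or the start; where it lies on the other strand it reads CGTGG first and ATTGG last, or for the ATF4 element TTGCATCA. The first 6 lines are chaperones with the ER stress element, among them Canx, whose expression did not pass, and the last 2 are ATF4 targets.
Hspa5: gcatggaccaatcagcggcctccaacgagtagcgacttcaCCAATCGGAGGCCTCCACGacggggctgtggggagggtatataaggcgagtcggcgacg
Calr: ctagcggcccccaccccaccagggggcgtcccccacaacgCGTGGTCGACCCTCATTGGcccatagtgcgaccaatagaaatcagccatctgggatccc
Creld2: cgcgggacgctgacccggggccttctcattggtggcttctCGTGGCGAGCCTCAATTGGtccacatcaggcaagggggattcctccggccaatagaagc
Pdia6: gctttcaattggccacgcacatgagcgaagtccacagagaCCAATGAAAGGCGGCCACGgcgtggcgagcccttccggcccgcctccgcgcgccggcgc
Dnajc3: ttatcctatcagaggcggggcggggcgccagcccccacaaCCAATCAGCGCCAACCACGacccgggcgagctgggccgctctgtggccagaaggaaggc
Canx: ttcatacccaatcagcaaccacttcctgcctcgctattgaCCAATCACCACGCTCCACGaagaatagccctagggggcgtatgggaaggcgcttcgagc
Asns: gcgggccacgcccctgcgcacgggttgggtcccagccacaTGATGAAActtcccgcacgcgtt
Chac1: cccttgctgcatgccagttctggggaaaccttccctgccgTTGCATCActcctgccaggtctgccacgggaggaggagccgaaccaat

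The Hspa5 stretch is chr2:34771985-34772083 on the plus strand, from -105 to -7 relative to the start, and the Calr stretch is chr8:84847035-84847133 on the minus strand. Creld2 lies at chr15:88819480-88819578 (plus), Pdia6 at chr12:17266451-17266549 (plus) and Dnajc3 at chr14:118937787-118937885 (plus). Canx lies at chr11:50325760-50325858 (minus), Asns at chr6:7693210-7693272 (minus) and Chac1 at chr2:119351009-119351096 (plus). All of these lie upstream of the annotated start of their gene. Hsp90b1 held 2 matches of the ER stress element in its window. Of the 7 chaperones with the element, 6 rose and Canx did not pass. The 4 without a match, Dnajb9, Sdf2l1, Pdia3 and Pdia4, all rose, by 0.54 to 1.00 on the log2 scale. The pair with the ATF4 element printed here did not move together, since Asns fell and Chac1 did not pass.

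**Figure D3:**
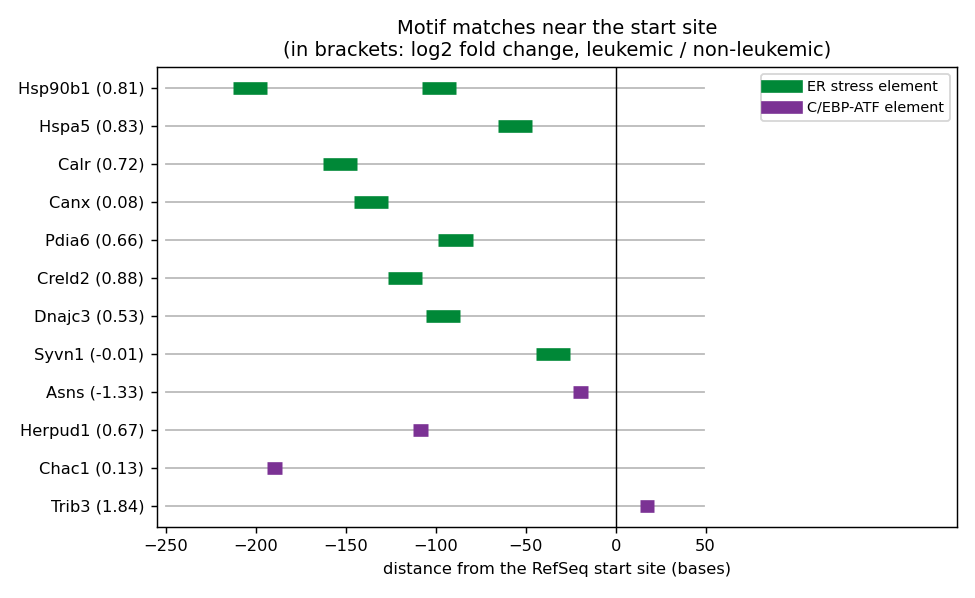
Position of each ER stress element (green) and C/EBP-ATF element (purple) relative to the RefSeq start site, in bases, for the 12 genes that hold a match; the log2 fold change is in brackets. The ER stress elements lie before the start in all 8 genes that hold one, with fold changes from -0.01 for Syvn1 to 0.88 for Creld2.

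ERAD pulls misfolded proteins out of the ER for destruction. Herpud1, which scaffolds the ERAD complex and is a target of both ATF6 and ATF4, rose by 0.67 ± 0.14 (adjusted p = 0.00534), from 167, 208 and 225 CPM to 259, 343 and 458 CPM with no overlap. Edem1, which trims mannose to mark glycoproteins, rose by 0.66 ± 0.19 (adjusted p = 0.0311), from 119, 169 and 215 CPM to 238, 255 and 426 CPM, also without overlap. The call of Edem1 was lost without male non-leukemic replicate 1, female non-leukemic replicate 1 or 2, or female leukemic replicate 3 (adjusted p from 0.0559 to 0.0872). The ubiquitin ligase Syvn1 (HRD1) and its partner Sel1l did not pass: Syvn1 had medians of 76.0 and 75.9 CPM with a log2 fold change of -0.01 ± 0.13, and Sel1l had medians of 135 and 175 CPM with 0.32 ± 0.13 (adjusted p = 0.127).

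The upstream sensors did not pass at the level of their own transcripts. Ern1 had medians of 21.5 and 26.2 CPM (log2 fold change 0.06 ± 0.25, adjusted p = 0.914), and Eif2ak3 had medians of 38.7 and 44.3 CPM (-0.03 ± 0.35, adjusted p = 0.975). Without female leukemic replicate 1, which had 5.73 CPM, the leukemic values of Eif2ak3 were 37.1 to 53.8 CPM. Atf6 had medians of 50.4 and 62.0 CPM (0.17 ± 0.18, adjusted p = 0.572). Its highest non-leukemic value, 81.0 CPM, came from male non-leukemic replicate 3, and without this library Atf6 passed (0.36, adjusted p = 0.0400). Total Xbp1, spliced and unspliced together, had 224, 336 and 477 CPM in non-leukemic and 312, 406 and 704 CPM in leukemic libraries, a log2 fold change of 0.38 ± 0.27 (adjusted p = 0.385). All 3 female leukemic libraries (704, 440 and 634 CPM) were above all 3 female non-leukemic libraries (240, 327 and 344 CPM), which was not so in males. This pattern in females was seen in 13.3% of all genes tested. In edgeR neither the effect in females (adjusted p = 0.0596) nor its difference from that in males (adjusted p = 0.819) passed.

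Atf4 mRNA had 140, 169 and 195 CPM in non-leukemic and 147, 171 and 192 CPM in leukemic libraries, a log2 fold change of -0.08 ± 0.13 that did not pass (adjusted p = 0.720). Without both libraries that stood apart it was -0.23 and passed (adjusted p = 0.0302). Its targets went both ways. Of the 6 amino acid and folate enzymes 3 rose and Asns fell, and of the 6 other targets Trib3 rose and Ddit3 fell. Phgdh, the first enzyme of serine synthesis, had 100, 123 and 176 CPM in non-leukemic and 212, 256 and 302 CPM in leukemic libraries, with no overlap. It rose by 0.92 ± 0.13 on the log2 scale (adjusted p = 0.000515). Psat1, the next enzyme, rose by 0.89 ± 0.16 (adjusted p = 0.002), from 83.6, 112 and 148 CPM to 173, 232 and 256 CPM, again with no overlap. Both passed in each sex: the log2 fold changes of Phgdh were 0.92 in males and 0.91 in females (adjusted p = 0.0152 in both), and those of Psat1 were 0.89 and 0.90 (adjusted p = 0.0400 and 0.0359). The calls within a sex were less firm for Psat1, which lost its call in 9 of 16 alternative settings in males and in 9 of 16 in females, the replicate block among them in both. Phgdh lost its call in 2 of 16 in each sex: without male leukemic replicate 2 or 3 in males, and without female non-leukemic replicate 1 or 2 in females.

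Mitochondrial folate enzymes, which take serine onward, moved less. Shmt2 rose by 0.33 ± 0.10 (adjusted p = 0.0422), from 230 to 291 CPM up to 284 to 413 CPM, and its call was lost in 9 of 23 alternative settings. Among these were the fits without male non-leukemic replicate 1 or 2, female non-leukemic replicate 2, or any male leukemic replicate (adjusted p from 0.0570 to 0.0907). Mthfd2 had medians of 83.5 and 115 CPM and did not pass (0.30 ± 0.12, adjusted p = 0.118). Aldh18a1, which starts proline synthesis from glutamate, did not pass either, at -0.09 ± 0.13 (adjusted p = 0.702).

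Asns, asparagine synthetase, went against them. It had 131, 331 and 396 CPM in non-leukemic and 77.5, 117 and 157 CPM in leukemic libraries. The single non-leukemic library within the leukemic range was male replicate 3. Asns fell 2.51-fold (log2 fold change -1.33 ± 0.26, adjusted p = 0.00338) and passed in all 23 alternative settings. Ddit3, which encodes the transcription factor CHOP that links long stress to cell death, also fell. It had 15.9, 24.6 and 28.4 CPM and then 8.93, 13.1 and 20.6 CPM, with 4 of 6 leukemic libraries below every non-leukemic library. Its log2 fold change was -0.81 ± 0.17 (adjusted p = 0.00604), and within each sex all 3 leukemic libraries lay below all 3 non-leukemic libraries. The pattern of 3 below 3 was seen in 10.7% of all genes in males and 14.6% in females.

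Trib3, a pseudokinase that ATF4 and CHOP induce and that restrains them, rose from a low level. It had 1.31, 1.5 and 3.31 CPM in non-leukemic and 2.66, 6.24 and 13.9 CPM in leukemic libraries, and 4 of 6 leukemic libraries were above every non-leukemic library. Its log2 fold change of 1.84 ± 0.44 (adjusted p = 0.0115), or 3.58-fold, was the highest of the 34 genes, with the largest standard error among those that passed. The call was lost with limma-voom and without the female leukemic replicates 1 and 3 (1.45, adjusted p = 0.0722). The remaining feedback genes did not pass. Ppp1r15a (GADD34), which reverses eIF2alpha phosphorylation, had medians of 287 and 319 CPM (-0.12 ± 0.18). Sesn2, a leucine sensor that holds back mTORC1, had medians of 31.1 and 23.8 CPM (-0.51 ± 0.34, adjusted p = 0.345). Chac1, which degrades glutathione, had medians of 1.99 and 2.31 CPM (0.13 ± 0.45), and Atf5 stayed at 0.144 to 1.31 CPM over all libraries, near the floor of the counts (0.18 ± 0.63).

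To set the branches side by side, the mean log2 CPM of the 12 ATF4 targets and of the 13 chaperones was taken in each library. The chaperone mean was 8.09 ± 0.21 (SD, n = 6) in non-leukemic and 8.85 ± 0.20 in leukemic libraries, and the ranges, 7.83 to 8.38 and 8.57 to 9.14, did not overlap. The ATF4 target mean was 5.21 ± 0.14 and 5.40 ± 0.21, with ranges of 4.94 to 5.33 and 5.22 to 5.80 that did. The ATF4 mean minus the chaperone mean was -2.88 ± 0.27 in non-leukemic and -3.45 ± 0.35 in leukemic libraries, a change of -0.57. The ranges overlapped, at -3.32 to -2.61 and -3.90 to -2.97. Since gene lengths differ, only the change of these means between conditions can be read, not the gap between them. Leaving out any 1 library kept the change between -0.66 and -0.48. The change was uneven between the sexes. In males the difference was -3.07 ± 0.24 in non-leukemic and -3.30 ± 0.33 in leukemic libraries (SD, n = 3 each), with overlapping ranges. In females it was -2.69 ± 0.105 and -3.60 ± 0.37, and the ranges did not overlap (-2.81 to -2.61 and -3.90 to -3.19). The ATF4 target mean was 5.16 and 5.50 in males, and 5.27 and 5.31 in females. As a summed share of counts, the chaperones took 0.520% to 0.754% in non-leukemic and 0.768% to 1.27% in leukemic libraries, and the ATF4 targets took 0.110% to 0.166% and 0.136% to 0.196%. No test was made of these means, because the genes were chosen with results of these data known.

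**Figure D4:**
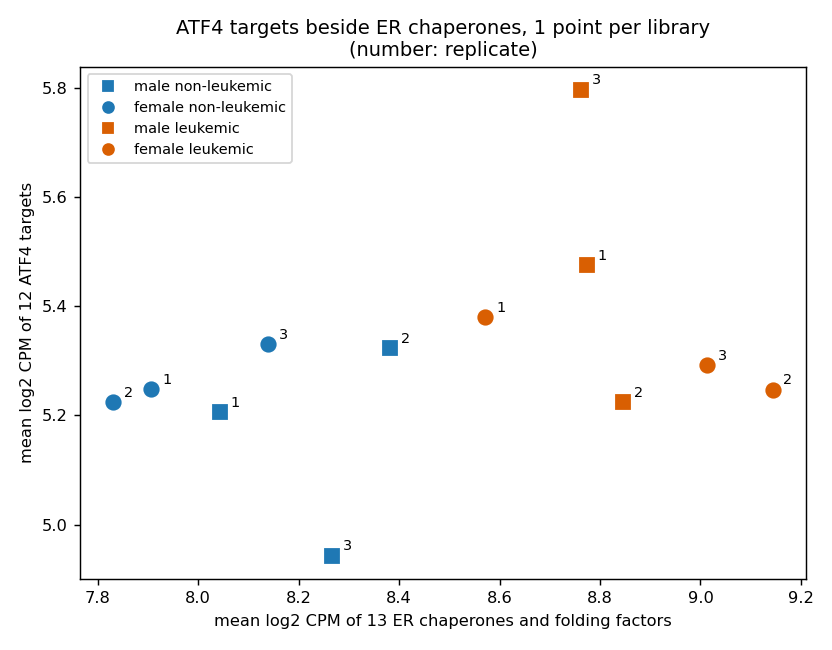
Mean log2 CPM of the 12 ATF4 targets (vertical) against that of the 13 chaperones (horizontal), 1 point per library, numbered by replicate. Leukemic libraries lie to the right, from 8.57 to 9.14 against 7.83 to 8.38, and overlap with non-leukemic libraries on the vertical axis.

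The leukemia effect was also taken within each labelled sex, with 3 libraries against 3. In males 3 of the 34 genes rose (Pdia4, Phgdh and Psat1) and Ddit3 fell, beside 3.34% and 4.04% of all genes called higher and lower. In females 15 rose and Asns fell, beside 3.84% and 4.59%. These counts hung on single libraries. In males 1 gene passed without male non-leukemic replicate 1, 2 without male leukemic replicate 1, 0 without male leukemic replicate 2 or 3, and 11 without female leukemic replicate 1. In females 8 passed without female non-leukemic replicate 1 and 9 without replicate 2. Of the 13 chaperones, Pdia4 passed in males and 11 passed in females, with median log2 fold changes of 0.37 and 0.99. All 3 male leukemic libraries nevertheless lay above all 3 male non-leukemic libraries for 12 of the 13 chaperones, a pattern seen in 23.7% of all genes tested. In females this held for 10 of 13, beside 13.3%. Scaled by library totals alone, as the CPM are, the chaperone medians were 0.53 in males and 1.01 in females.

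The difference between the sexes did not pass for any of the 34 genes. The interaction was called for 0 of 15758 genes with edgeR (0.00%), 0 with limma-voom, and 10 higher and 13 lower with DESeq2, of which 0 were among the 34. At an unadjusted p under 0.05, 925 genes passed (5.87%), among them 7 of the 34: Creld2, Sdf2l1, Manf, Pdia4, Pdia6, Dnajc3 and Xbp1. Creld2 had the lowest p of them. It went from 95.6, 140 and 157 CPM to 174, 177 and 183 CPM in males, and from 102, 83.1 and 120 CPM to 265, 304 and 273 CPM in females. Its log2 fold change was 0.28 in males and 1.47 in females, an interaction of 1.19 ± 0.28 (unadjusted p = 0.00104, adjusted p = 0.815). For Sdf2l1 the values were 0.23 and 1.31, for Manf 0.17 and 1.19, and for Xbp1 -0.23 and 0.99. Differences between females and males within a condition gave 0 calls in edgeR (0.00%), with 769 genes at an unadjusted p under 0.05 in non-leukemic (4.88%) and 1370 in leukemic libraries (8.69%). No gene tested, sex-linked or not, was thus called between the labelled sexes in these fits. The sex of each library rests here on its label alone, and these fits did not bear the labels out. Male and female are therefore label names throughout.

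**Figure D5:**
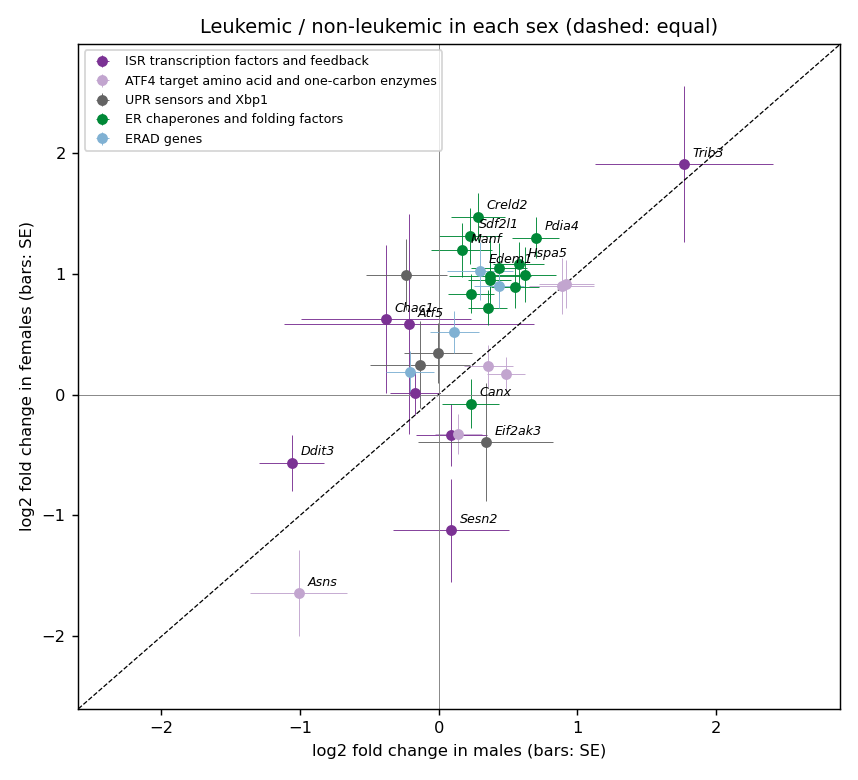
Log2 fold change in libraries labelled female (vertical) against that in libraries labelled male (horizontal) for the 34 genes, with standard errors. The diagonal marks equal effects. Of the 13 chaperones 12 lie above the diagonal, such as Creld2 at 0.28 and 1.47, while Phgdh and Psat1 lie on it.

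Markers of plasma cells, which secrete antibody and carry a large ER, also differed in share between these libraries. The summed share of 10 plasma cell markers was 0.0998% to 0.384% in non-leukemic, 0.117% to 0.338% in male leukemic and 0.358% to 1.24% in female leukemic libraries. Of the 10, 2 rose and 1 fell between conditions; their log2 fold changes ran from -1.69 to 1.84, with a median of 0.63 (1.07 in females). Jchain, the joining chain of secreted antibody, reached 9699 CPM in female leukemic replicate 1, against a leukemic median of 886 CPM, and Mzb1, a chaperone of antibody assembly, reached 43.8 CPM, against a median of 6.86 CPM. Prdm1, the master factor of plasma cells, had medians of 9.31 and 22.0 CPM and did not pass (adjusted p = 0.0616). The share was 1.24% and 0.705% in female leukemic replicates 1 and 3 and 0.358% in replicate 2. Markers of B cells, at 0.287% to 1.35% in non-leukemic libraries, took 3.56% and 2.93% in replicates 1 and 3 and 0.404% in replicate 2. Replicate 2 in turn had 3.66% of eosinophil, basophil and mast cell markers, against 1.14% to 1.86% in the other leukemic libraries. Of the 13 chaperones, 8 had their highest value in replicate 2, 2 in replicate 1 (Dnajb9 and Manf), 2 in replicate 3 (Hsp90b1 and Pdia4) and Canx in male leukemic replicate 1. Markers of immature myeloid cells and progenitors took 1.09% to 1.29% in female leukemic and 0.626% to 0.724% in female non-leukemic libraries. In males the leukemic shares lay within the non-leukemic range. Of these 10 markers 4 rose and 0 fell between conditions. Of 12 markers of marrow resident macrophages 10 fell, and of 8 markers of dividing cells 7 fell. The part of these cell types in the chaperone values was not tested. A further setting, chosen after seeing the data, left out female leukemic replicates 1 and 3. In it 10 of 13 chaperones rose with a median of 0.70, and 4 of 12 ATF4 targets rose and 2 fell. Sdf2l1, Manf, Edem1 and Trib3 then lost their calls, while Hyou1 and Mthfd2 passed.

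Around these genes, 9 lists of the same pathways were counted, holding 133 tested genes of which 23 rose (17.3%) and 11 fell (8.27%); their median log2 fold change was 0.12. The shares over all genes were 8.71% and 9.20%. The machinery that feeds proteins into the ER rose in part: of 23 genes of the translocon, signal peptidase and glycosylation 6 rose (26.1%), with a median of 0.19. Sec61a1, the pore of the translocon, rose by 0.52 ± 0.10 (adjusted p = 0.00255), from 274 to 332 CPM up to 375 to 543 CPM. Ssr3 rose by 0.73 ± 0.16, Spcs3 by 0.38 ± 0.10 and Srprb by 0.45 ± 0.11 (adjusted p = 0.00604, 0.0153 and 0.0154). Of 20 other folding enzymes 5 rose (25.0%), with a median of 0.30. They were Pdia5 (0.89 ± 0.16), P4hb (0.49 ± 0.13), Txndc5 (0.88 ± 0.23), Ganab (0.40 ± 0.12) and Mogs. Of 18 other ERAD genes Selenos (0.68 ± 0.17) and Edem2 (0.59 ± 0.16) rose and Rnf139 fell (-0.76 ± 0.14), with a median of 0.05; these shares, 11.1% and 5.56%, lie near those of all genes.

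Upstream of ATF4, 2 of 12 genes of the eIF2alpha kinases, phosphatase and eIF2B rose (16.7%) and 4 fell (33.3%), with a median of -0.19. Eif2ak1 encodes HRI, the heme-sensing kinase known from red cell precursors. It had 183 to 303 CPM in non-leukemic and 101 to 147 CPM in leukemic libraries, with no overlap, and its log2 fold change was -1.05 ± 0.12 (adjusted p = 9.06e-05). Eif2b4 (-0.50 ± 0.13), Dele1, which carries mitochondrial stress to HRI, and Ppp1r15b (-0.64 ± 0.18), the constitutive partner of the eIF2alpha phosphatase, also fell. Oma1, the protease that cleaves DELE1, rose by 0.46 ± 0.13 (adjusted p = 0.0325), and so did Eif2ak4, which encodes GCN2, the sensor of uncharged tRNA.

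Of 19 further stress factors and ATF4 targets 6 rose (31.6%) and 2 fell (10.5%), with a median of 0.46. Shmt1, the cytosolic partner of Shmt2, rose by 1.05 ± 0.16 (adjusted p = 0.000715), from 33.8 to 66.1 CPM up to 90.7 to 139 CPM. Pycr1, which completes proline synthesis, rose by 1.33 ± 0.24 (adjusted p = 0.00185), from 3.08 to 10.6 CPM up to 11.0 to 25.7 CPM, and Psph, the last enzyme of serine synthesis, also rose. Pck2 fell (-0.79 ± 0.14, adjusted p = 0.00212), as did Eif4ebp1, a brake on cap-dependent translation (-0.68 ± 0.13, adjusted p = 0.00241). Of 10 amino acid transporters under ATF4, Slc6a9 and Slc43a1 fell, and Slc7a3 rose from 0 counts in the non-leukemic to 123 counts in the leukemic libraries. Those 123 counts are a sum, and Slc7a3 was not counted in every leukemic library. Slc6a9, a glycine transporter, had 13.4 to 36.3 CPM and then 1.80 to 3.56 CPM (-3.23 ± 0.26, adjusted p = 6.81e-06). Slc43a1, a carrier of large neutral amino acids, went from 116 to 362 CPM down to 43.1 to 65.8 CPM (-2.34 ± 0.22, adjusted p = 2.32e-05). Red cell precursors also express Slc6a9 and Eif2ak1, and the red cell markers given above fell beside them, as Hbb-bs did (-4.57 ± 0.28, adjusted p = 9.47e-07). The part of red cell RNA in these falls was not tested.

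In the other lists, 1 gene or none passed in either direction, near the shares of all genes. Of 12 cytosolic aminoacyl-tRNA synthetases Wars rose (0.43 ± 0.10, adjusted p = 0.00787) and Aars fell (-0.53 ± 0.14, adjusted p = 0.0207), with a median of -0.04. Of 9 mitochondrial chaperones and proteases Htra2 fell (-0.75 ± 0.16, adjusted p = 0.00599), with a median of -0.07. The 10 genes of ATF6 processing and the CREB3 family had a median of 0.09. The nearest of them to the threshold was Mbtps2, the site-2 protease that cleaves ATF6, at 0.70 ± 0.26 (adjusted p = 0.0867).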

How the data were processed

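RNA of sorted macrophages (1 ng) was amplified and tagmented with kits that mark neither strand nor single molecules, per the labels' protocols. Antisense or overlapping genes therefore cannot be separated. The authors deposited raw counts per gene, unnormalized. Per the submitters' processing notes, the tools included STAR 2.7.9a and fastp 0.23.1, featureCounts of Subread 2.0.1, and the build was GRCm39; settings and annotation are not given in the sources used here.

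Here, counts were filtered with filterByExpr over the 4 groups, scaled with TMM (trimmed mean of M values) and tested two-sided with the robust quasi-likelihood F test of edgeR 4.0.16 in R 4.3.3. The main model held sex and leukemia on 12 libraries. Effects within a sex, their interaction and sex differences were contrasts of 4 group means. P values were Benjamini-Hochberg adjusted over 15758 genes. The standard error is the size of the log2 fold change divided by the square root of F. Per-library means used a prior count of 2. Replicates of a group differed beyond sampling noise (chi-square per degree of freedom at least 24.0).

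The members and lists were chosen with earlier results of these data known. All members are reported, with a fixed set of marker genes and with genes from among the 4 of lowest p in each pathway list. Of those 4, genes that did not pass are left out, except Mbtps2. Other list genes (Dele1, Eif2ak4, Psph, Mogs) were named after their values were seen. Marker lists for other cell types were summed as percent of counts. Alternatives were relative log expression (RLE) factors, library totals alone, DESeq2 1.42.0, limma-voom (limma 3.58.1), other filters, a 1.5-fold minimum, no sex term, a replicate block, and leaving libraries out. The pipeline was tested on simulated data.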

Additional observations from a re-analysis of the deposited data

Results flagged for a closer look

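In 5 of 68 groups of 6 libraries (34 genes in each condition), 1 library lay far from the other 5. Chance gives about 1 in 20 such groups. In 3 of the 5 it was the low value of female leukemic replicate 1, the library with the fewest genes detected. Eif2ak3 had 5.73 CPM there, against 37.1 to 53.8 CPM in the other leukemic libraries. Canx had 424 CPM, against 794 to 924 CPM, and Pdia3 had 1122 CPM, against 1475 to 1669 CPM. Edem1 was high in female leukemic replicate 3, at 426 CPM against 238 to 307 CPM. Atf6 was high in male non-leukemic replicate 3, at 81.0 CPM against 41.5 to 55.7 CPM in the other non-leukemic libraries.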

How the results depend on the processing

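When a change of at least 1.5-fold was asked for, 978 genes passed in place of 2822, and of the 34 genes 2 rose and 1 fell in place of 17 and 2. Among them were 1 chaperone that rose, and 1 ATF4 target that rose and 1 that fell. Without both libraries that stood apart, 4717 genes passed. The count of the 34 that passed in males went from 4 to 8 when only the 6 male libraries were fitted, and ran from 0 to 11 when single libraries were left out. In females it ran from 8 to 17. With 1 library left out, 2108 to 3910 genes passed, 12 to 19 of the 34 rose and 8 to 12 chaperones rose. None of the genes that passed changed sign in these settings. The interaction stayed at 0 of the 34 genes in every setting run.

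Replicate numbers are shared between groups, but same-numbered libraries did not deviate together: over 18 pairs r ran from -0.11 to 0.08, and 5 of 12 libraries correlated best with their own number. With the replicate block, 2509 genes passed, and 16 of the 34 rose and 2 fell; Shmt2 and Manf lost their calls and Hyou1 gained one.

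With 3 libraries per group, a difference between the sexes of the size seen for Creld2 (1.19 on the log2 scale) did not pass after adjustment. For Atf5, Chac1 and Trib3, at a few CPM, depth also limits precision.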
